A study of Homo sapiens with 5 samples.

Results

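The proteasome genes were described here across 5 single-cell RNA libraries of MDA-MB-468, a long-established cell line from a human breast cancer of the triple-negative kind. Members were the gene symbols made of PSM, a letter from A to G and a number that reached 10 CPM (the gene's count scaled to a library total of 1000000) in the summed cells of at least 1 library. Of 48 such symbols among 36601 features, 46 were members. PSMA8, the testis form of an alpha subunit, had 6 to 12 counts in each library, and PSMB11, the thymus form of a beta subunit, had 0 in all 5. A count of 0 allows up to 0.0351 CPM in the least deep library. The members nearest the minimum were PSMD5, whose highest level was 34.0 CPM, and PSME3, whose highest was 42.5 CPM, so none lay close to it.

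The study gave the cells PF0517515, named in its title as an inhibitor of ACC, or acetyl-CoA carboxylase, whose product malonyl-CoA feeds fatty acid synthesis. The groups were cells at 0 h without the inhibitor, 6 h with it, 72 h without it, 72 h with it, and recovery cells taken after a 72 h treatment; lists of 5 values follow this library order. All groups were the same cell line, and the sources used here give neither dose nor vehicle nor the length of recovery. Each group was 1 library, so no spread between cultures was available and no test was made. Ranges in parentheses are exact 95% intervals that cover counting error only.

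The proteasome degrades proteins marked with ubiquitin. Its barrel-shaped core has outer alpha rings (PSMA genes), which gate the entrance, and inner beta rings (PSMB genes), of which PSMB5, PSMB6 and PSMB7 carry the cutting sites. A cap on the core holds a ring of ATPases (PSMC genes), which unfold the substrate, and non-ATPase subunits (most PSMD genes), which bind ubiquitin and cut it off. In the immunoproteasome, which makes peptides for display on MHC class I and is induced by interferon, PSMB8 takes the place of PSMB5, PSMB9 that of PSMB6 and PSMB10 that of PSMB7. PSME1 and PSME2 form the PA28 activator, which replaces a cap and is also induced by interferon. Other genes of the family encode the activators PSME3 and PSME4, the inhibitor PSMF1, and chaperones that build the core (PSMG1 to PSMG4) or the base of the cap (PSMD5, PSMD9 and PSMD10).

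Between 1927 and 3705 cells were kept per library, with a total of 85376888 to 114350566 UMIs (unique molecular identifiers, which count captured RNA molecules). Median UMIs per cell ran from 26540 in recovery to 41573 at 72 h of inhibitor. Ribosomal protein genes took 18.7%, 17.3%, 16.7%, 25.5% and 21.2% of UMIs in library order. All 5 epithelial markers (EPCAM, KRT8, KRT18, KRT19 and CDH1) reached 10 CPM in every library, with a summed level of 4793 to 9313 CPM. Of 10 markers of blood, endothelial and stromal cells 0 reached it, their summed level was 7.26 to 17.5 CPM, and COL3A1 was at 0 in all 5 libraries. Pairs of libraries shared 0 to 7 cell barcodes.

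Together the 46 genes took 10728, 9277, 9033, 7133 and 7927 CPM in library order. The sum was thus highest in the 0 h library and lowest after 72 h of inhibitor. The 14 core genes of the alpha and constitutive beta rings stood at 5438, 4558, 4495, 3297 and 3873 CPM, and the 17 cap genes at 3445, 3069, 2529, 2147 and 2294 CPM. The 3 immunoproteasome genes went the other way between the untreated libraries, with 276, 225, 428, 363 and 328 CPM. PSME1 and PSME2 together stood at 389, 327, 532, 369 and 484 CPM. These are 3′ counts, in which each molecule is tagged at its end, so levels were not divided by gene length. In bulk sums, fewer cells that express a gene and less RNA per cell cannot be told apart.

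**Figure D1:**
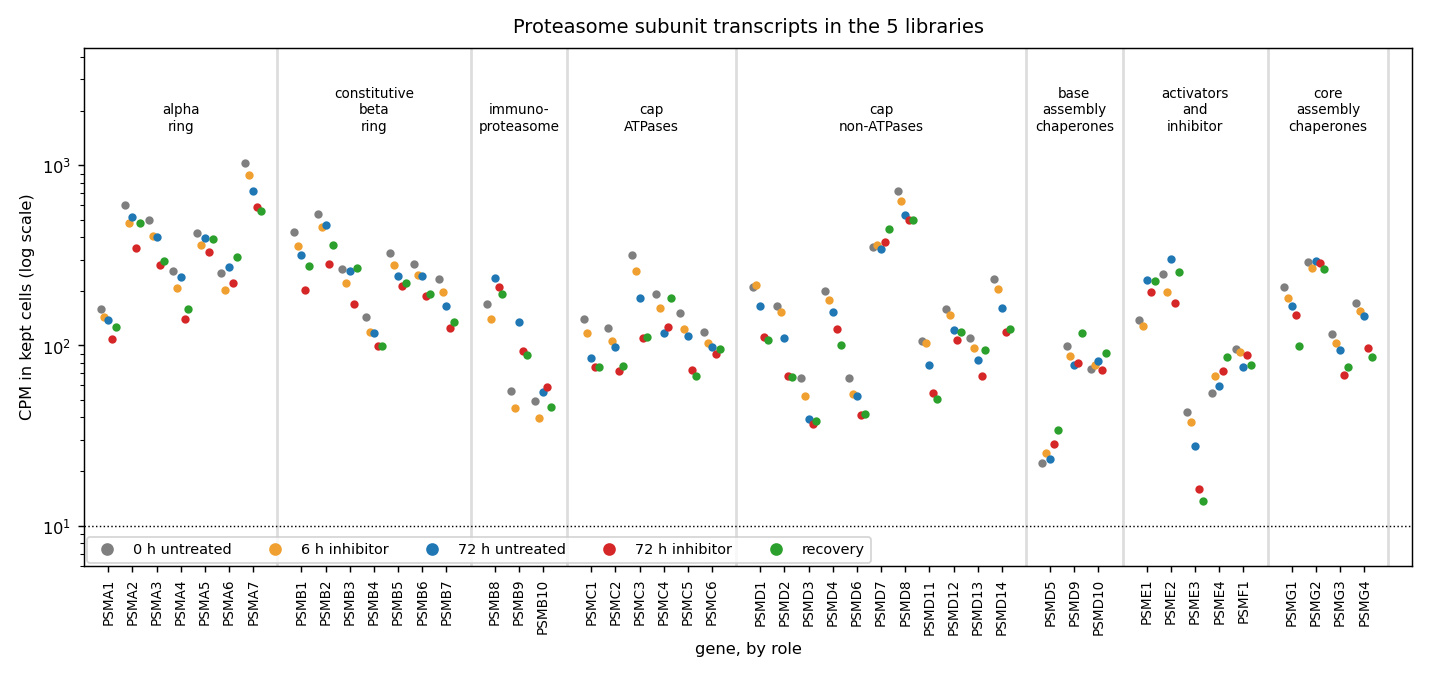
Level of each of the 46 proteasome genes (horizontal axis, grouped by role) in CPM of kept cells (vertical axis, log scale), with 1 point per library, coloured by library and drawn side by side in the order of the key. The dotted line is the 10 CPM minimum. The points of PSMB8, PSMB9 and PSME1 are higher in the 3 later libraries than at 0 h and 6 h, while those of PSMC3, PSMD2 and PSMA7 are lower there.

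The catalytic subunits were compared as pairs within each library, which needs no scaling between libraries. PSMB9 stood at 55.8, 45.0, 135, 92.9 and 89.0 CPM in library order, while PSMB6, the caspase-like site it replaces, stood at 282, 248, 243, 187 and 192 CPM. PSMB9 per PSMB6 was 0.198 and 0.182 in the 2 early libraries and 0.555, 0.496 and 0.463 in the 3 later ones. The early and later libraries therefore did not overlap in this ratio, and the 72 h untreated library was the highest.

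PSMB8 stood at 171, 140, 237, 211 and 193 CPM, beside 326, 281, 244, 215 and 223 CPM for PSMB5, the chymotrypsin-like site. PSMB8 per PSMB5 was 0.524 and 0.498 early and 0.971, 0.985 and 0.869 later, again without overlap. PSMB10 stood at 49.0, 39.7, 55.5, 58.6 and 45.3 CPM and PSMB7, the trypsin-like site, at 233, 199, 166, 125 and 135 CPM. PSMB10 itself was lower in recovery than at 0 h, yet PSMB10 per PSMB7 was 0.210 and 0.200 early and 0.334, 0.470 and 0.337 later, with PSMB7 lower in the later libraries. Over the 3 pairs together the ratio was 0.328, 0.309, 0.654, 0.690 and 0.597.

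The difference between the untreated libraries was thus 2.0-fold for the pairs together, and 2.81-fold for PSMB9 per PSMB6, 1.85-fold for PSMB8 per PSMB5 and 1.59-fold for PSMB10 per PSMB7. Between 72 h of inhibitor and 72 h untreated the folds were 1.05 for the pairs together, 0.894 for PSMB9 per PSMB6, 1.02 for PSMB8 per PSMB5 and 1.41 for PSMB10 per PSMB7. At the same time point, PSMB10 per PSMB7 was therefore the pair that differed most with the inhibitor, and it lay near the untreated value again in recovery. In CPM most of that difference lay in PSMB7, at 166 without and 125 with the inhibitor, beside 55.5 and 58.6 for PSMB10. With median-of-ratios scaling PSMB10 stood at log2 0.31, so the split between the genes depended on the scaling. The inhibitor at 6 h and the untreated cells at 0 h gave folds of 0.919 to 0.952 for the 3 pairs. Among cells low in UMIs of both cell cycle lists, PSMB9 per PSMB6 was 0.190, 0.157, 0.448, 0.439 and 0.419. Those cells were 29.1%, 31.1%, 47.2%, 74.6% and 42.8% of each library, a share that also differed between early and later libraries, and the early and later ratios did not overlap among them either.

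**Figure D2:**
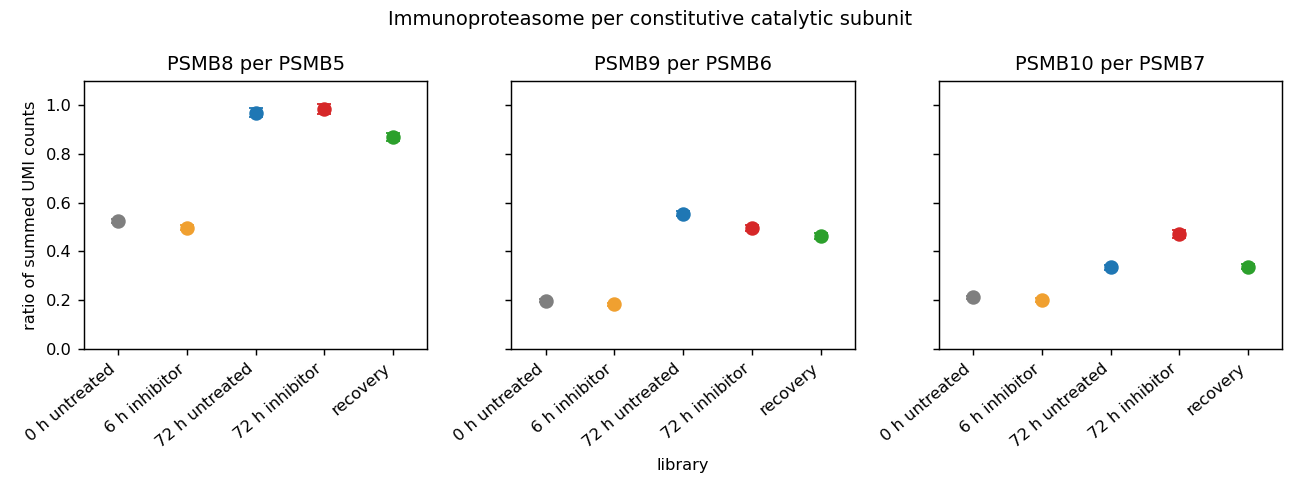
Ratio of summed UMI counts of each immunoproteasome subunit to the constitutive subunit it replaces (vertical axis, linear from 0) in the 5 libraries (horizontal axis); points are the 5 libraries and bars are exact 95% intervals of counting error, mostly smaller than the points. In all 3 panels the 72 h untreated, 72 h inhibitor and recovery points lie above the 0 h and 6 h points, and PSMB10 per PSMB7 is highest at 72 h of inhibitor with 0.470.

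In CPM, PA28 followed the immunoproteasome between the untreated libraries. With median-of-ratios scaling, described below, PSME1 was still higher at 72 h (log2 0.46), while PSME2 was nearly level (log2 0.01). PSME1 stood at 139, 129, 229, 197 and 228 CPM and PSME2 at 250, 198, 303, 172 and 256 CPM. PSME2 was lower at 72 h with the inhibitor than at 0 h, while PSME1 was higher in all 3 later libraries than in the early ones. PSME1 and PSME2 per core gene were 0.0716 in both early libraries and 0.118, 0.112 and 0.125 in the later ones. The third PA28 gene, PSME3, which forms a separate nuclear activator, stood at 42.5, 37.8, 27.8, 16.1 and 13.6 CPM and was lower in the 3 later libraries than in the early ones. In CPM it was, like PSME1 and PSME2, lower at 6 h than at 0 h and lower at 72 h with the inhibitor than without it. PSME3 per PSME1 and PSME2 was 0.109 and 0.116 early and 0.0522, 0.0436 and 0.0282 later.

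PSMB8 and PSMB9 lie next to each other in the MHC region of chromosome 6 (GRCh38, GENCODE 29), PSMB8 at chr6:32840717-32844703 on the minus strand and PSMB9 at chr6:32844136-32859585 on the plus strand, and the annotated genes overlap. PSMB9 also overlaps PSMB8-AS1 on the same strand, whose counts were low, at 5.29, 4.44, 7.93, 2.51 and 2.19 CPM. PSMB10 lies at chr16:67934502-67937087 on the minus strand. PSME1, at chr14:24136158-24138967 on the plus strand, and PSME2, at chr14:24143362-24147570 on the minus strand, are neighbours. Of the 46 members, 22 overlap another feature, and 12 have pseudogenes named for them (32 in all, of which 0 are among the features), so reads shared with such copies could not be followed here.

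Promoters were read from RefSeq (GRCh38.p14), as windows from 250 bases before to 50 bases after an annotated start, which 40 members had, in 49 windows. Both strands were searched for an interferon-type repeat (GAAA, any pair of bases, then GAAA again), for TGACNNNGC, the core of the antioxidant response element that NFE2L1 and NFE2L2 bind with a small Maf partner, and for CCAAT. The interferon-type repeat was in 14.3% of the members' windows and in 3.57% of all 35116 windows. It was held by 7 members: PSMB8, PSMB10, PSME1, PSME2, PSMA4, PSMB4 and PSMG4. In PSMB8, PSMB10, PSME1, PSME2 and PSMG4 the match had the same letters, GAAAGCGAAA on one strand or the other. That decamer, chosen after the matches were seen, was in 35 of the 35116 windows, or 0.0997%. The windows of the interferon-inducible subunits are shown to place these matches, with any match to the 3 motifs, on either strand, in capitals. Another PSMB8 window, chr6:32844630-32844929, belongs to a different annotated start. It held no match to the 3 motifs and is not shown.
PSMB8, chr6:32843998-32844297, minus strand: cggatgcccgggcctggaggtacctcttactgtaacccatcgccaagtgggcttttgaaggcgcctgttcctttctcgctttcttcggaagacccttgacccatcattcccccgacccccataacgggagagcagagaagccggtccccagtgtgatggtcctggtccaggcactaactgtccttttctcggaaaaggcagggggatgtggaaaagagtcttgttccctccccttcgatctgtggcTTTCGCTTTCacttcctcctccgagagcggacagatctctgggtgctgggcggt
PSMB10, chr16:67936801-67937100, minus strand: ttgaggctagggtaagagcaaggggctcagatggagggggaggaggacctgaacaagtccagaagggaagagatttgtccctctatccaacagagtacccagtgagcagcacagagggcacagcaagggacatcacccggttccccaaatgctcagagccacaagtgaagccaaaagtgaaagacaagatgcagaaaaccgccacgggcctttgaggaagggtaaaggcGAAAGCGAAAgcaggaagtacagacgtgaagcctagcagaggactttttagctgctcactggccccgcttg
PSME1, chr14:24135944-24136243, plus strand: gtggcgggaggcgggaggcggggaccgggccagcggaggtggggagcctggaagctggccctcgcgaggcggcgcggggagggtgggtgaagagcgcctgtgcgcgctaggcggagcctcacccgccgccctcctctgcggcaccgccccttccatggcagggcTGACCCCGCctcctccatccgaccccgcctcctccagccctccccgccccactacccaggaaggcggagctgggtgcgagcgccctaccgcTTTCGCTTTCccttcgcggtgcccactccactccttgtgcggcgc
PSME2, chr14:24146561-24146860, minus strand: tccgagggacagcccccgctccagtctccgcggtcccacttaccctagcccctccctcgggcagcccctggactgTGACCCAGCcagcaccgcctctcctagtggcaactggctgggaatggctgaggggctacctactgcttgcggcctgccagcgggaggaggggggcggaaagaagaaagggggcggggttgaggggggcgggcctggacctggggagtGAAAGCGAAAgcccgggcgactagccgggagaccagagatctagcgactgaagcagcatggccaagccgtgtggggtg
PSMB9, chr6:32853942-32854241, plus strand: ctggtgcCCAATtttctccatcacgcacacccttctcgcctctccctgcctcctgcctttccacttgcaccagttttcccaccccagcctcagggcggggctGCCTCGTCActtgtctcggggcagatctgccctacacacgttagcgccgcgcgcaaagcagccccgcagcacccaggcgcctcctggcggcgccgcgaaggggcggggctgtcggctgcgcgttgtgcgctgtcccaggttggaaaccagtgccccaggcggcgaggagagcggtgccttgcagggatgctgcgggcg
Counted from the annotated start as 0, the decamer began at -4 in the PSMB8 window shown, -21 in PSMB10, 5 in PSME1 and -28 in PSME2. The PSMB9 window held no interferon-type repeat, although PSMB9 was the member that differed most between the untreated libraries; its capitals mark CCAAT and a reversed TGACNNNGC. Of the 7 members with the interferon-type repeat, 4 were higher at 72 h untreated than at 0 h, with a median log2 ratio of 0.18, beside 58.9% of all genes; of the 33 without it 6 were higher, with a median of -0.34. Of the 5 members with the decamer, 4 were higher there in CPM (median log2 ratio 0.28), and PSMG4 was the exception. Under median-of-ratios scaling PSME2, the median of these 5, stood at 0.01, and PSMB10, the median of the 7, at -0.08. That scaling moved the median of all genes to -0.16. Of the 35 without it 6 were higher, with a median of -0.33. A match describes the letters in the window, and binding was not measured.

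The first comparison across genes set the untreated libraries against each other, 72 h against 0 h, and so describes what 72 h in culture without inhibitor went with. Of the 46 members 36 were lower at 72 h, beside 41.1% of the 9303 genes at 10 CPM or more in either library, with a median log2 ratio of -0.32 against 0.10 for all genes. More than 1.25-fold lower were 23 members (16.8% of all genes), and 3 were more than 1.25-fold higher (31.6% of all genes): PSMB9 at 2.42-fold (2.34 to 2.49), PSME1 at 1.65-fold (1.62 to 1.69) and PSMB8 at 1.39-fold (1.36 to 1.41). Median-of-ratios scaling, set by the median gene among those counted in all 5 libraries, shifted every log2 ratio here by -0.26. It moved the median of all genes to -0.16. With it 42 members were lower (63.4% of all genes), 34 of them by more than 1.25-fold (35.5%). PSMB9 and PSME1 were then the 2 members more than 1.25-fold higher (16% of all genes), and PSMB8 stood at log2 0.21, short of that fold.

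All 17 genes of the cap were lower (41.1% of all genes), 15 of them by more than 1.25-fold (16.8%). The median log2 ratio was -0.57 for the 6 ATPases and -0.40 for the 11 non-ATPases, beside -0.21 for the alpha ring and -0.29 for the constitutive beta ring. PSMC3, a cap ATPase, was the lowest member, at 319, 259, 183, 110 and 111 CPM. PSMD3, a subunit of the cap's lid, stood at 66.2, 52.2, 39.1, 36.8 and 38.02 CPM. Both were highest at 0 h and differed little between 72 h of inhibitor and recovery. Cap per core gene counts were 0.633, 0.673, 0.563, 0.651 and 0.592, so in summed counts the 72 h untreated library had the least cap RNA per core RNA. These sums lean on the most abundant cap genes, PSMD8, at 720, 630, 527, 496 and 499 CPM, and PSMD7, at 354, 360, 344, 373 and 444 CPM. The ratio without them was not computed.

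In the alpha ring, PSMA7, with 1033, 879, 717, 587 and 561 CPM, had the lowest ratio of the ring at 72 h untreated against 0 h (log2 -0.53). PSMA6 was the only alpha gene higher there, at 252, 204, 274, 222 and 308 CPM (log2 0.12, but -0.14 with median-of-ratios scaling). In the beta ring PSMB7 was the lowest and PSMB3, a structural subunit, the nearest to equal, with 267, 221, 258, 170 and 270 CPM. The base chaperone PSMD10, also known as gankyrin, stood at 74.4, 77.5, 82.0, 73.3 and 91.3 CPM. The core chaperones ranged from PSMG1, at 212, 183, 167, 148 and 99.8 CPM to PSMG2, its partner, at 292, 270, 295, 285 and 266 CPM. PSMG2 was thus nearly level across the libraries, and both were lowest in recovery. PSMG3, another core chaperone, stood at 116, 103, 94.0, 68.4 and 75.7 CPM.

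The members not yet described lay between these. PSMA3 of the alpha ring (496 CPM at 0 h and 401 at 72 h untreated) and PSMB1 of the beta ring (429 and 319 CPM) had log2 ratios of -0.31 and -0.43. The ATPases PSMC1 and PSMC2 had ratios of -0.73 and -0.35, and the core chaperone PSMG3 one of -0.30. The lid subunits PSMD6, PSMD8, PSMD11 and PSMD12 had ratios of -0.33, -0.45, -0.45 and -0.40. At 72 h with against without inhibitor, the same 9 genes ran from -0.65 for PSMB1 to -0.09 for PSMD8.

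**Figure D3:**
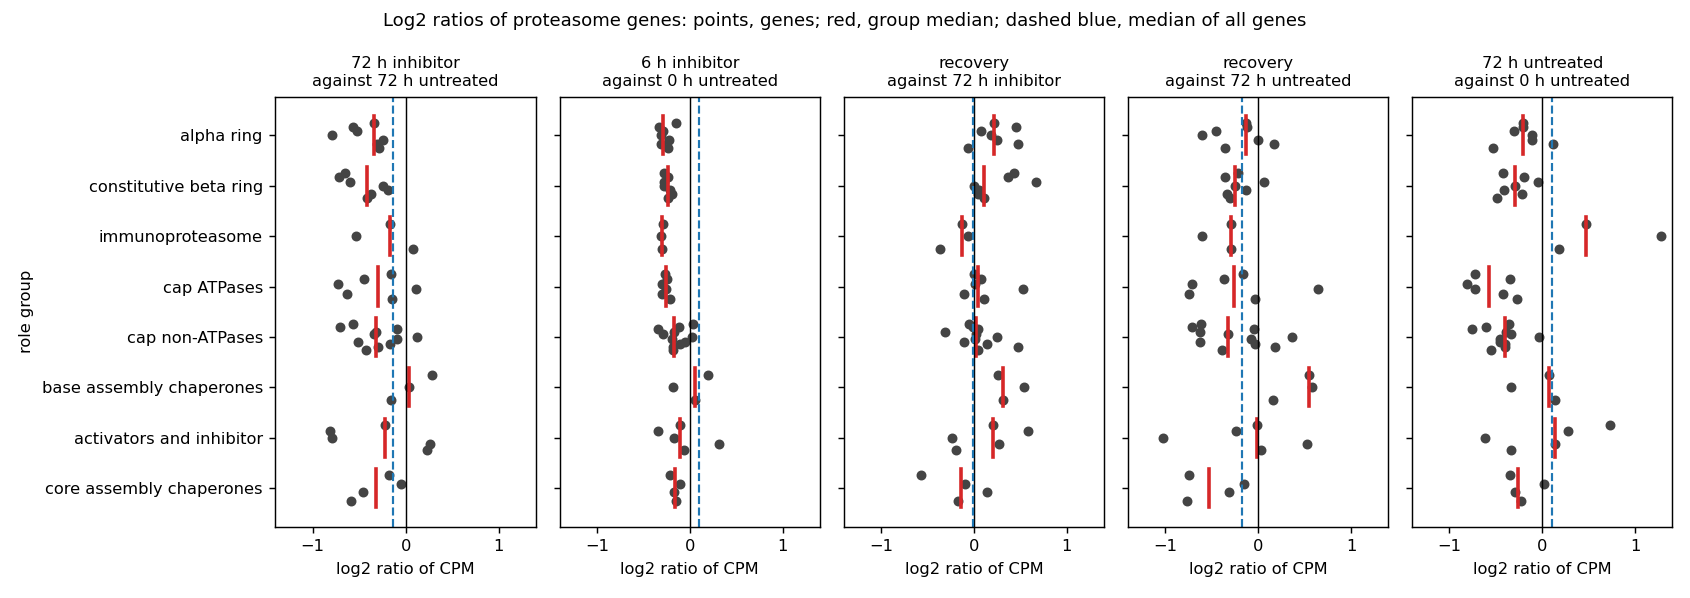
Log2 ratio of CPM (horizontal axis) of each member in the 5 comparisons (panels), by role (vertical axis); grey points are genes, red bars the median of a role and the dashed blue line the median of all genes. Equal CPM is at 0. The immunoproteasome median is 0.47 at 72 h untreated against 0 h while both cap medians are -0.40 or below. With median-of-ratios scaling all points of that panel and its dashed line would move by -0.26. Those of the first panel would move by 0.23.

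The second comparison asked how 72 h of the inhibitor differed from 72 h without it. Of the 46 members 39 were lower with the inhibitor, beside 61% of 9346 genes, and the median log2 ratio was -0.31 against -0.14 for all genes. More than 1.25-fold lower were 22 members (36% of all genes), and 0 were more than 1.25-fold higher (17.4% of all genes). Below the median of all genes were 36 members, beside 50% by definition. Under median-of-ratios scaling every log2 ratio shifted by 0.23, which left 28 of 46 members lower (42.3% of all genes). The members' median was then -0.08, against 0.10 for all genes. The trimmed mean of M values (TMM), another scaling of that kind, also gave 28 (43.1% of all genes). With median-of-ratios scaling 12 members were more than 1.25-fold lower (21.3% of all genes) and 5 more than 1.25-fold higher (32.1%), namely PSMD5, PSME4, PSMF1, PSMD7 and PSMC4. In recovery against 72 h untreated that scaling gave a shift of 0.26. Totals without mitochondrial and ribosomal protein genes gave 36 members lower at 72 h with against without inhibitor (51.4% of all genes). The ribosomal share, 25.5% here against 16.7%, moved with these ratios, and its part in them was not tested.

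All 14 core genes were lower (61% of all genes), 9 of them by more than 1.25-fold (36%). With median-of-ratios scaling 13 were lower, PSMB5 turning, beside 42.3% of all genes. PSMA4, an alpha subunit, was the lowest of the core, with 260, 209, 241, 140 and 159 CPM, and was 1.73-fold (1.69 to 1.76) lower with the inhibitor at 72 h. PSMB2, a structural beta subunit, stood at 534, 454, 464, 282 and 363 CPM and was 1.65-fold (1.62 to 1.67) lower. PSMA5, at 423, 362, 393, 331 and 392 CPM, and PSMB5 were the least different of their rings, with log2 ratios of -0.25 and -0.19. The 72 h inhibitor library was the lowest of the 5 for PSMA4, PSMB2, PSMA5 and PSMB5.

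In the cap 15 of 17 genes were lower (61% of all genes), 8 by more than 1.25-fold (36%). With median-of-ratios scaling 10 were lower (42.3% of all genes). PSMC3 was 1.66-fold (1.62 to 1.7) and PSMD2, a scaffold of the base that binds ubiquitin shuttles, 1.63-fold (1.57 to 1.68) lower; PSMD2 stood at 167, 154, 110, 67.5 and 67.2 CPM. The ATPase PSMC4, at 194, 162, 118, 127 and 184 CPM, and PSMD7, the partner of the deubiquitinase PSMD14, at 354, 360, 344, 373 and 444 CPM, were the 2 cap genes that were higher, by 1.08-fold (1.05 to 1.11) and 1.09-fold (1.07 to 1.1). PSMD7 was thus within a narrow range in 4 libraries and highest in recovery. PSMD14 itself was 1.35-fold (1.31 to 1.38) lower. In summed counts, cap RNA per core RNA was 1.16-fold higher with the inhibitor. Median log2 ratios lay closer, at -0.40 for core and -0.32 for cap genes. The cap sum leans on its most abundant genes, PSMD8, at 527 CPM without and 496 with the inhibitor, and PSMD7. The ratio without those genes was not computed.

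Of the immunoproteasome, PSMB9 was 1.45-fold (1.41 to 1.49) and PSMB8 1.12-fold (1.1 to 1.14) lower and PSMB10 1.06-fold (1.02 to 1.1) higher; with median-of-ratios scaling PSMB8, the median of the 3, turned from -0.17 to 0.07. Against the 0 h untreated library, PSMB9 was higher after 72 h of inhibitor (log2 0.73), since PSMB9 was low at 0 h. Among the activators PSME2 was the lowest of all 46 members, 1.76-fold (1.73 to 1.8) lower, and PSME3 was 1.73-fold (1.62 to 1.85) lower. PSME4, the nuclear activator PA200, at 54.4, 67.7, 59.9, 71.7 and 86.2 CPM, was 1.2-fold (1.15 to 1.24) higher, as was PSMF1, at 95.5, 91.5, 75.9, 88.9 and 77.6 CPM, by 1.17-fold (1.13 to 1.21). Of the 4 activators PSME4 alone was higher, and PSME1 stood at log2 -0.22 (0.01 with median-of-ratios scaling). Base chaperone PSMD5, at 22.1, 25.5, 23.3, 28.4 and 34.0 CPM, was 1.22-fold (1.15 to 1.29) higher, and core chaperone PSMG4, at 172, 155, 147, 97.3 and 86.4 CPM, 1.51-fold (1.47 to 1.55) lower.

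The third comparison set 6 h of inhibitor against 0 h untreated; with no untreated library at 6 h, the inhibitor and 6 h in culture cannot be told apart. The members were lower in a narrow band. Of the 46, 41 were lower, beside 39.8% of 9075 genes, with a median log2 ratio of -0.21 against 0.10 for all genes, and 44 lay below the median of all genes (50%). In CPM the differences were small. More than 1.25-fold lower were 3 members (6.14% of all genes), namely PSMD3, PSME2 and PSMA2, and 0 were more than 1.25-fold higher (28.4%). At a minimum of 50 CPM 39 of 43 members were lower, beside 51.3% of genes, with medians of -0.22 and -0.01. Under median-of-ratios scaling (a shift of -0.17 for every gene) 44 of 46 were lower, beside 56.9% of all genes. More than 1.25-fold lower were 34 (22.4% of all genes), including all 14 core genes, and 0 were more than 1.25-fold higher (16%). Against the 72 h untreated library in its place, 13 of 46 were lower, with a median of 0.13, so the direction depended on which untreated library was used.

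All 14 core genes lay between log2 -0.33 for PSMA2, at 599, 478, 519, 350 and 477 CPM, and -0.15 for PSMA1, at 160, 144, 138, 109 and 126 CPM, both alpha subunits. The constitutive beta genes ran from -0.28 for PSMB4, at 144, 118, 118, 99.3 and 99.4 CPM, to -0.19 for PSMB6. The 3 immunoproteasome genes were between -0.31 and -0.29, and the 6 ATPases between -0.30 for PSMC3 and -0.21 for PSMC6, at 119, 103, 98.6, 89.3 and 96.2 CPM. Core, ATPase and immunoproteasome genes thus moved together, without the split seen between the untreated libraries. Higher were PSME4, by log2 0.32 (0.27 to 0.37), PSMD5, 1.15-fold (1.09 to 1.21) higher, and 3 genes higher by at most 0.06 on the log2 scale that turned negative with median-of-ratios scaling: PSMD10, PSMD7 and PSMD1, a base scaffold, at 211, 216, 165, 111 and 107 CPM.

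In this comparison log2 ratios of all genes also went with genomic span, the distance from a gene's start to its end. The shortest 10% of protein-coding genes had a median of -0.20 and the longest 10% one of 0.48, and Spearman's rho across 8752 genes was 0.61. Members had a median span of 16.8 kb (2.36 to 138.8 kb), beside 37.4 kb for all genes, and 35 of 46 were shorter than that. Among the 46 members rho was 0.37. PSME4, the gene most above 0, spans 106.8 kb, although PSMA1 (138.8 kb) and PSMD14 (103.7 kb) were below 0. These correlations run across genes of the same libraries, which are not independent, and the part of span in the members' ratios was not tested. Between the untreated libraries rho was 0.26 for all genes and -0.11 for the members.

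**Figure D4:**
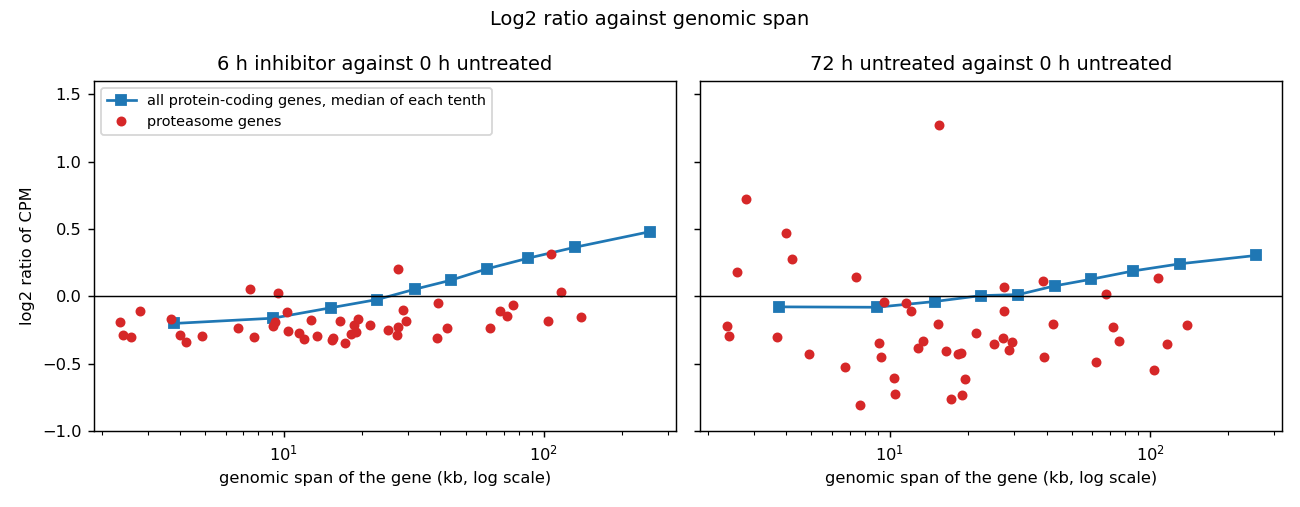
Log2 ratio of CPM (vertical axis) against the genomic span of a gene in kb (horizontal axis, log scale) for 6 h of inhibitor against 0 h (left) and 72 h untreated against 0 h (right). Red points are the 46 members and blue squares the medians of all protein-coding genes in 10 bins by span. On the left 44 members lie below the median of all genes, 0.10; on the right PSMB9 stands apart at 1.27.

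The last comparisons set the recovery library against 72 h of inhibitor and against 72 h untreated; they share the recovery library, so their values are given side by side. Against 72 h of inhibitor 31 of 46 members were higher, beside 49.4% of 8943 genes, with a median log2 ratio of 0.06 against -0.01 for all genes. More than 1.25-fold higher were 9 members (26.6% of all genes). More than 1.25-fold lower were 2, PSMG1 and PSMB10 (27.3%). These shares were at or below those of all genes. At a minimum of 50 CPM 28 of 42 members were higher, beside 56.4% of genes, with medians of 0.07 and 0.08. In cells low in both cell cycle lists 24 of 46 were higher (52.3% of all genes), with medians of 0.01 and 0.03. With totals that left out mitochondrial and ribosomal protein genes 21 of 46 were higher (41.8% of all genes). The median was then -0.04, against -0.11 for all genes. Against 72 h untreated 36 of 46 were lower, beside 61.3% of 9405 genes, with a median of -0.24 against -0.17. Median-of-ratios scaling gave 22 lower (43.6% of all genes) and a median of 0.02 against 0.09. Against 0 h untreated cells in place of the 72 h ones, 35 of 46 were lower (52.7% of all genes). The median was -0.54, against -0.06 for all genes.

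Core genes were higher than at 72 h of inhibitor in 13 of 14, with PSMA7 the exception, beside 49.4% of all genes. With totals that left out mitochondrial and ribosomal protein genes 9 of 14 were higher (41.8% of all genes). PSMB3 was 1.58-fold (1.55 to 1.62), PSMA6 1.39-fold (1.37 to 1.42) and PSMA2 1.37-fold (1.35 to 1.39) higher; PSMB3 and PSMA6 were also above the 72 h untreated level, by log2 0.06 and 0.17. The 3 immunoproteasome genes were lower than at 72 h of inhibitor, with log2 ratios of -0.37 to -0.06. PSME2 was 1.49-fold (1.46 to 1.52) higher, which brought it back near its 0 h level. PSMD13, a lid subunit, stood at 110, 97.1, 83.5, 68.0 and 94.4 CPM and was 1.39-fold (1.34 to 1.43) higher than at 72 h of inhibitor. By contrast PSMD4, a ubiquitin receptor, at 202, 179, 154, 124 and 100.03 CPM, and PSMC5, an ATPase, at 151, 123, 113, 72.7 and 67.3 CPM, were lowest in recovery.

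More than 1.25-fold above the 72 h untreated level were 5 members (21.4% of all genes) and more than 1.25-fold below it 17 (39.7%). The 5 were PSMC4 at 1.56-fold (1.53 to 1.6), PSMD9 at 1.49-fold (1.45 to 1.54), PSMD5 at 1.46-fold (1.38 to 1.54), PSME4 at 1.44-fold (1.39 to 1.49) and PSMD7 at 1.29-fold (1.27 to 1.31). PSMD9, a base chaperone, stood at 99.3, 87.4, 78.3, 80.4 and 117 CPM; it overlaps WDR66 on the same strand, so some of its reads could belong to that gene. Recovery was the highest of the 5 libraries for PSMD9, PSMD5, PSME4 and PSMD7, but not for PSMC4, which stood at 194 CPM at 0 h (log2 -0.079 against that library). All 3 base chaperones were higher than at 72 h untreated, beside 38.7% of all genes. Of the 6 cap ATPases 5 were lower, PSMC4 being the exception, beside 61.3% of all genes. With median-of-ratios scaling 3 of the 6 were lower (43.6% of all genes). With that scaling 9 members were more than 1.25-fold above the 72 h untreated level (35.1% of all genes) and 11 more than 1.25-fold below it (25%). At the other end PSME3 was 2.04-fold (1.91 to 2.17) lower, PSMG4 1.7-fold (1.65 to 1.74) and PSMG1 and PSMC5 each 1.67-fold lower.

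TGACNNNGC, the antioxidant response core, was in 30.6% of the members' windows and 13.3% of all windows, and was held by 15 of 40 members. Of the 5 members highest in recovery against 72 h untreated, PSMC4, PSMD5, PSMD9 and PSME4 held it and PSMD7 did not; that is 4 of 15 members with it and 1 of 25 without, beside 21.4% of all genes. Against 72 h of inhibitor, 4 of 15 with it and 4 of 25 without it were more than 1.25-fold higher, beside 26.6% of all genes. Medians against 72 h untreated were -0.04 with it and -0.24 without it. CCAAT was in 38.8% of the members' windows and 34.6% of all. The stretches around the TGACNNNGC matches of the 4 genes are shown, with the match in capitals on the gene's own strand (reversed matches start with GC).
PSMC4, chr19:39971177-39971214, plus strand: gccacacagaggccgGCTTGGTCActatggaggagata
PSMD5, chr9:120843033-120843071, minus strand: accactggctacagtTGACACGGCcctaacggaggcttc
PSMD9, first match, chr12:121888626-121888664, plus strand: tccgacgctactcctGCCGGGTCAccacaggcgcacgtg
PSMD9, second match, chr12:121888673-121888711, plus strand: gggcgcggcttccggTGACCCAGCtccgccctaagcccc
PSME4, chr2:53971004-53971042, minus strand: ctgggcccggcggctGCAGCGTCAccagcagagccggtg
Counted from the annotated start as 0, the matches began at 27 in PSMC4, -134 in PSMD5, -149 and -102 in PSMD9 and -34 in PSME4.

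Genes of the pathway outside the family were taken from lists. Among the regulators, MAFG, a small Maf partner of NFE2L1 and NFE2L2, stood at 23.8, 39.1, 34.3, 77.5 and 139.7 CPM. NFE2L1, the transcription factor that raises proteasome genes when proteasomes are impaired, stood at 29.1, 34.1, 28.4, 36.9 and 49.1 CPM. Both were highest in recovery, MAFG 4.08-fold (3.92 to 4.24) and NFE2L1 1.73-fold (1.65 to 1.81) above 72 h untreated, and both were higher with the inhibitor at 72 h, by 2.26-fold (2.17 to 2.36) and 1.3-fold (1.23 to 1.37). Of the 9 regulators 5 were higher in recovery than at 72 h untreated (38.7% of all genes), 4 of them by more than 1.25-fold (21.4%). The 3 more than 1.25-fold lower (39.7%) were NGLY1, AKIRIN2 and BACH1. NGLY1 stood at 19.1 CPM at 72 h untreated and 13.4 in recovery, AKIRIN2 at 35.0 and 25.8, and BACH1 at 35.6 and 22.5. DDI2 stood at 14.7 and 14.4 CPM. At 72 h with against without inhibitor 6 of the 9 were higher (39% of all genes). At 6 h against 0 h 9 of 9 were (60.2%), with a median log2 ratio of 0.29 against 0.10 for all genes.

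UBB, a polyubiquitin gene, was also highest in recovery and stood at 589, 445, 594, 450 and 789 CPM. ZFAND2A, a stress-inducible proteasome adaptor, stood at 35.6, 35.3, 48.6, 70.9 and 105 CPM, and VCP, the segregase that pulls proteins out of complexes, at 396, 364, 274, 206 and 313 CPM. Of 10 shuttle and segregase genes 8 were higher in recovery than at 72 h untreated (38.7% of all genes), 4 of them by more than 1.25-fold (21.4%). POMP, the chaperone that matures the core, followed the core genes with 515, 417, 407, 313 and 399 CPM. ADRM1, a ubiquitin receptor of the cap, stood at 177, 159, 123, 141 and 162 CPM and SEM1, a small lid subunit, at 259, 231, 244, 180 and 252 CPM; of 7 such cap-associated genes 6 were lower at 72 h untreated than at 0 h (41.1% of all genes), 1 by more than 1.25-fold (16.8%).

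Genes of antigen processing and interferon response were higher at 72 h untreated than at 0 h in 10 of 11 (58.9% of all genes), 8 of them by more than 1.25-fold (31.6%), with a median log2 ratio of 0.43 against 0.10 for all genes. IRF1, a transcription factor of the interferon response, stood at 40.8, 34.9, 97.4, 92.5 and 123 CPM, HLA-B at 270, 250, 444, 374 and 506 CPM and B2M, the light chain of MHC class I, at 708, 592, 922, 852 and 1028 CPM. IRF1, HLA-B and B2M were higher in the 3 later libraries than in the early ones, like PSMB8 and PSMB9. TAP1, part of the transporter that brings peptides into the endoplasmic reticulum and the divergent neighbour of PSMB9, differed less, with 19.9, 16.1, 23.8, 19.97 and 24.0 CPM. Unlike PSMB8 and PSMB9, this list was higher in recovery than at 72 h of inhibitor, in 8 of 11 (49.4% of all genes) with a median of 0.27.

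Counts per cell were compared at an equal depth, with every cell thinned to 5000 UMIs and 5 to 75 shallower cells per library left out. The 46 genes together had a median of 53, 46, 44, 35 and 39 UMIs per cell in library order. The middle 80% of cells held 40 to 68 UMIs at 0 h and 24 to 46.3 at 72 h of inhibitor, so the whole distribution lay lower and each library had a single peak. The 0 h library's 90th percentile was 68 UMIs, a cut that by itself set the share of 0 h cells above it, 9.38%. In the other libraries 2.07% (1.59 to 2.65), 1.32% (0.934 to 1.8), 0.107% (0.013 to 0.386) and 0.144% (0.0469 to 0.337) of cells lay above it. These intervals are binomial over the cells of 1 library, and cells are not replicates of a group. The variance over the mean across cells was between 1.95 and 2.35 in the 5 libraries.

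**Figure D5:**
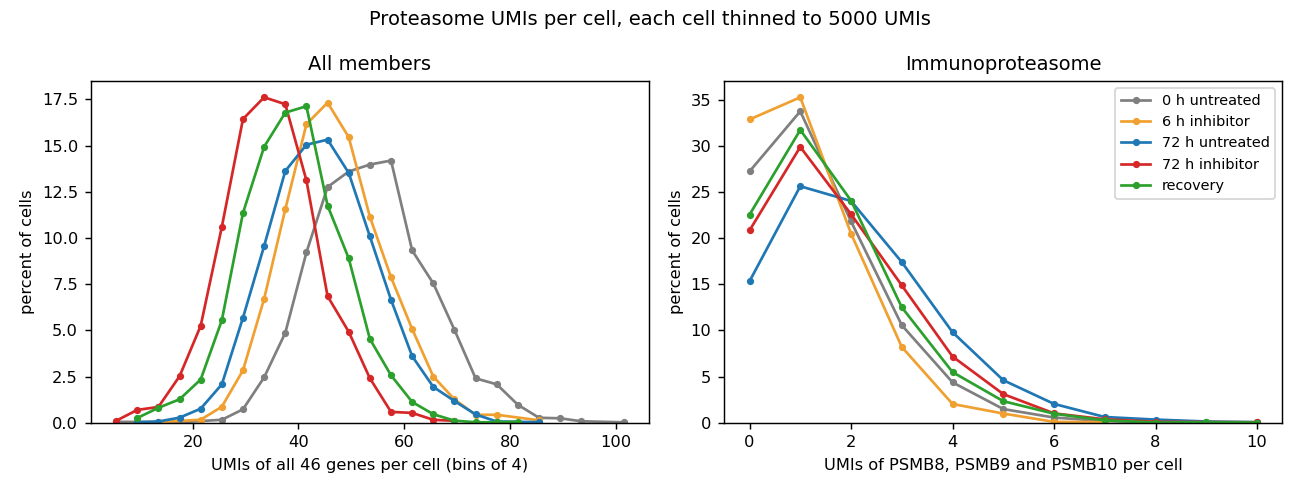
Percent of cells (vertical axis) by UMIs per cell (horizontal axis) of all 46 genes in bins of 4 UMIs (left) and of PSMB8, PSMB9 and PSMB10 together (right), each cell thinned to 5000 UMIs; lines are the 5 libraries. On the left each curve has a single peak, with medians from 53 at 0 h to 35 at 72 h of inhibitor; on the right the 72 h untreated curve lies farthest right, with a mean of 2.09 UMIs against 1.39 at 0 h.

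PSMB9 had a UMI in 23.5%, 20.6%, 45.4%, 33.5% and 33.5% of thinned cells. PSMB8 had one in 55.9%, 50.8%, 67.3%, 60.7% and 59.6% and PSMB10 in 22.5%, 18.0%, 22.6%, 23.7% and 19.9%. Before thinning PSMB9 had one in 73.3%, 70.7%, 92.9%, 85.2% and 79.6% of cells, PSMB8 in 93.05% to 97.6% and PSMB10 in 63.1% to 79.7%, at median depths of 28980, 33712.5, 29231.5, 41573 and 26540 UMIs. These libraries hold no other cell type that would show a background share, and PSMB11 had 0 UMIs. Cells above their library's 90th percentile of UMIs from 20 interferon genes had 1.14-fold (1.01 to 1.28) the immunoproteasome CPM of the rest at 0 h, and in the other libraries 1.21 (1.03 to 1.41), 1.18 (1.08 to 1.29), 1.07 (0.891 to 1.28) and 1.21 (1.09 to 1.34). All 46 genes together differed by 1.03- to 1.05-fold in the same split. The cut lay at 2 to 4 UMIs, and 136 to 486 cells sat exactly on it, so the split is coarse. In cells low in both cell cycle lists PSMB9 was 0.827-fold (0.752 to 0.908) of its level in the other cells at 72 h untreated, 0.819-fold (0.704 to 0.957) at 72 h of inhibitor and 0.756-fold (0.679 to 0.842) in recovery. At 0 h and 6 h the intervals of that ratio held 1, at 1.02-fold (0.89 to 1.17) and 0.924-fold (0.781 to 1.09).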

How the data were processed

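Single-cell RNA was measured with 10x 3′ chemistry in 5 libraries, 1 per group. The authors deposited unnormalized UMI counts per gene and cell barcode, made with Cell Ranger 7.1.0 on GRCh38, per the submitters' processing notes. For the annotation release and the treatment of intronic reads, the setting is not given in the sources used here. Cells with at least 1000 genes and at most 20% mitochondrial UMIs were kept, without doublet removal. Counts were summed per library and divided by its total (CPM). Genes at 10 CPM in either library entered a comparison, as log2 ratios of CPM with exact Clopper-Pearson intervals that cover counting error only; a ratio over 1.25-fold was counted as a call. With 1 library per group no test was run. Intervals were tested on simulated data. The members and lists were chosen with earlier results of these data known. All members were named, and 5-library values were given for the catalytic pairs, PA28 and the highest and lowest gene of each role in each comparison. Alternatives were 3 scalings (median-of-ratios, TMM from edgeR 4.0.16, and library totals that left out mitochondrial and ribosomal protein genes), cell filters, thinning and gene minimums. Python 3.11.15, scipy 1.17.1 and R 4.3.3 were used, and GENCODE 29 for gene positions.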

Additional observations from a re-analysis of the deposited data

Results flagged for a closer look

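For 5 members the ratio at 72 h (inhibitor against untreated) and the ratio at 6 h (inhibitor against 0 h untreated) had opposite signs, each with a counting interval that left out equality. The difference was not tested, since each group was 1 library, and the 6 h ratio also holds 6 h in culture. Of all genes, 60.2% were higher at 6 h and 61% were lower at 72 h. The share of all genes with opposite signs is not given here, so the 5 members cannot be set against it. For PSMB10 the 72 h log2 ratio of 0.08 minus the 6 h ratio of -0.30 was 0.38. For PSMC4 the ratios were 0.11 and -0.26, a difference of 0.37. For PSMD1 they were -0.57 and 0.03, a difference of -0.60, and for PSMD10 -0.16 and 0.06, a difference of -0.22. For PSMF1 they were 0.23 and -0.06, a difference of 0.29. With median-of-ratios scaling, PSMD1 and PSMD10 had 6 h ratios of -0.14 and -0.11, and PSMD10 a 72 h ratio of 0.07, so the sign of both members at 6 h depended on the scaling.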

How the results depend on the processing

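Each comparison was repeated under 13 alternatives, or 12 where the other untreated library did not apply, chosen with earlier results of these data known. The count of members in the majority direction stayed within 1.5 times its value in 61 of 63 cases. That range is wide, and it holds falls from 39 to 28 and from 36 to 24 of 46 under other scalings. Dropping the expression minimum could not change a count, since all 46 members passed it in each comparison. In recovery against 72 h of inhibitor the count fell from 31 to 21 of 46 with totals that left out mitochondrial and ribosomal protein genes, also within that range. The share of all genes fell there from 49.4% to 41.8%. Medians of role groups moved beyond their counting error in 378 of 756 cases, and ratios of single members in 970 of 2883, with 4 more reversed. Set against 72 h untreated cells, 13 of 46 members were lower at 6 h of inhibitor (44.8% of all genes), in place of 41 (39.8%). PSMD3 turned to 0.42. Set against 0 h cells, PSMB9 turned to 0.73 at 72 h of inhibitor and to 0.67 in recovery, and PSMC4 to -0.079 in recovery. With median-of-ratios scaling 22 of 46 members were lower in recovery than at 72 h untreated, beside 43.6% of all genes. No paired analysis was possible because each group was 1 library. For the same reason no library could be left out. The depth gave narrow counting intervals, so the lack of replicates, not depth, limits these comparisons.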
